A study of Mus musculus with 12 samples.

Results

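Apcs, Lbp, Itih3 and Itih4 are 4 hepatocyte genes for plasma proteins of the acute-phase response, and they are described here together with Saa1, the gene for a serum amyloid A protein. These 5 genes were chosen by name, by matching the Ensembl identifiers of a liver count table to the GENCODE vM1 annotation. The table held 51609 rows, and 4 of the 5 genes had a row that was used. Saa1 was not analysed here, and its neighbour Saa2 is given in its place as a relative, not as a member.

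The data were RNA-seq of whole liver from 12 mice in 4 groups of 3. Wild-type and Rela and Stat3 knockout (RelaΔhepStat3Δhep) mice, 5 to 7 weeks old and on a C57BL/6 background, either drank plain water (untreated) or received 2% dextran sulfate sodium (DSS), a polymer that injures the colon epithelium, in the drinking water for 6 days. The deletion used a Cre recombinase under the albumin promoter, which acts in hepatocytes, so the other liver cells keep both genes. The mice called wild-type in the study were littermates without Cre that carried floxed alleles. Mice of both sexes were used in the study, and the sex of each sequenced mouse is not stated in the sources used here.

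Acute-phase proteins are made by hepatocytes and secreted into plasma when inflammatory cytokines reach the liver. Interleukin-6 acts through the transcription factor Stat3, and interleukin-1 and tumour necrosis factor act through NF-kB, of which Rela is a subunit. Serum amyloid A binds high-density lipoprotein, and serum amyloid P component (Apcs) is a pentraxin that binds bacterial surfaces, chromatin and amyloid fibrils. Lbp carries lipopolysaccharide to Cd14. Itih3 is a heavy chain that is linked to bikunin (from Ambp) in the inter-alpha-inhibitor complexes and stabilises hyaluronan, and Itih4 is a heavy-chain relative that does not bind bikunin.

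In the genome build of the table (mm9), Apcs lies on the minus strand at chr1:174824093-174825185 and Lbp on the plus strand at chr2:158132229-158158588. Itih4 (plus strand, chr14:31699662-31715167) and Itih3 (minus strand, chr14:31721759-31736946) are neighbours, with 6591 bases between their ends, and Itih1 follows Itih3 after 5419 bases. None of the 4 overlapped another annotated gene, and no stretch of 75 bases in their longest coding transcripts occurred in a transcript of another gene. Saa1 (minus strand, chr7:53995871-53998350) and Saa2 (plus strand, chr7:54007203-54009684) stand 8852 bases apart. After alignment their transcripts were identical at 568 of the 610 bases of the longer transcript (93.1%). Of the 536 stretches of 75 bases in the Saa2 transcript, 2 (0.373%) occurred in Saa1, so few exact reads of that length fit both genes. Reads with mismatches could still be assigned to either gene, and the size of that share was not tested.

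The sequences around the transcription start sites of the measured members were read from the RefSeq promoter table (build GRCm38.p6), and are shown as a description. The table has entries for 5 of the 6 genes looked up, and Lbp has no entry. Each sequence runs 5′ to 3′ from 250 bases before to 50 bases after the start site. Capitals mark matches on either strand to the STAT palindrome TTCNNNGAA, to the acute-phase element CTGGGAA, to the C/EBP pattern TTNNGNAA and to the NF-kB consensus known as kappaB, and no marked matches overlap. Apcs is at chr1:172895005-172895304 (minus strand), Itih4 at chr14:30886226-30886525 (plus strand) and Itih3 at chr14:30923538-30923837 (minus strand).
Apcs: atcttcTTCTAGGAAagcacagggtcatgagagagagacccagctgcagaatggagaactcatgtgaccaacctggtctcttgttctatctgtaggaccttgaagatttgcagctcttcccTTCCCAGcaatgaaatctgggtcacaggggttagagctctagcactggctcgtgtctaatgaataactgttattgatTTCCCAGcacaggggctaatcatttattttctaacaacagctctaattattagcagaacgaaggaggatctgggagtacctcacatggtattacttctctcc
Itih4: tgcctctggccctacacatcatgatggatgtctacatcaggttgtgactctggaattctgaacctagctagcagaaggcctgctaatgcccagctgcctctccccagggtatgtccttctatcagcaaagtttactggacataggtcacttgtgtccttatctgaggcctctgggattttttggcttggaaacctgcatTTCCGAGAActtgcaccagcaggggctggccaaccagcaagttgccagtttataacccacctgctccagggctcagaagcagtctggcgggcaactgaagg
Itih3: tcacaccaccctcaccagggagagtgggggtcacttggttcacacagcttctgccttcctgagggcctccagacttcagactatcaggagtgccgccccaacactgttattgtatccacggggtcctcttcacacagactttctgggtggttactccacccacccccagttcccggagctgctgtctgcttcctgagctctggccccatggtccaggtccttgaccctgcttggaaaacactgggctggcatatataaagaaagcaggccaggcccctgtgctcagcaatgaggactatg

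The Apcs sequence held 1 STAT palindrome, whose first base lies at position -244 from the start site, and 2 matches to CTGGGAA on the other strand, at -129 and -52. The Itih4 sequence held 1 STAT palindrome at -51, and the Itih3 sequence held no match to any of the 4 patterns. Among 32544 promoter sequences of the same length, 8.33% held the STAT palindrome, 11% held CTGGGAA, 40.7% held TTNNGNAA and 4.53% held the kappaB consensus. After alignment the Saa1 and Saa2 promoters were identical at 287 of their 300 bases (95.7%), against 186 of 300 (62%) for Itih3 and Itih4. These matches describe the letters in the windows, and no binding was measured.

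The libraries held 65879529 to 82850098 estimated counts, and levels are given as CPM, the counts of a gene per 1000000 counts of its library, on library sizes scaled by the trimmed mean of M-values (TMM). Depth did not follow the groups. Rela, summed over all liver cells, was at 41.2 to 54.5 CPM in untreated wild-type mice and at 42.8 to 51.4 CPM in untreated knockout-labelled mice, so the gene-level count did not show the deletion. Stat3 was at 45.7, 138 and 87.6 CPM in untreated wild-type mice and at 45.9, 46.7 and 49.7 CPM in untreated knockout-labelled mice. With DSS, Rela was at 39.8 to 55.5 CPM and 39.5 to 62.3 CPM in the same order of genotypes, and Stat3 was at 63.2, 329.5 and 307 CPM in wild-type mice and at 43, 58.1 and 74.8 CPM in knockout-labelled mice. Stat3 was thus lower on average in the knockout-labelled mice with and without DSS, and the genotypes overlapped in both cases. The study characterised the strain by genotyping and by blotting of protein. Counts over a whole gene do not separate a deleted exon from the rest, and whole liver includes cells without Cre. The mice are therefore called knockout-labelled below. All 3 DSS-treated knockout-labelled mice had Xist at 903 to 1283 CPM and 4 Y-linked genes summing to at most 0.12 CPM. The 3 untreated knockout-labelled mice had Y-linked sums of 175 to 215 CPM and Xist at 0.23 to 29 CPM. Sex and DSS therefore cannot be told apart within the knockout-labelled mice. Untreated wild-type mouse 3 had both Xist (1143 CPM) and Y-linked transcripts (30.1 CPM), and the other 5 wild-type mice had Y-linked sums of 188 to 241 CPM and Xist at no more than 11.9 CPM.

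DSS-treated wild-type mouse 2 had the highest level of all 4 measured members among the 12 libraries, and DSS-treated wild-type mouse 3 had the second highest. DSS-treated wild-type mouse 1 stayed within or near the untreated range. In the knockout-labelled mice, Apcs and Lbp were higher in every DSS-treated mouse than in every untreated mouse, whereas Itih4 had nearly the same mean without DSS (2119 CPM) and with it (2157 CPM). The plot of levels by library shows these values for the 4 members and Saa2.

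**Figure D1:**
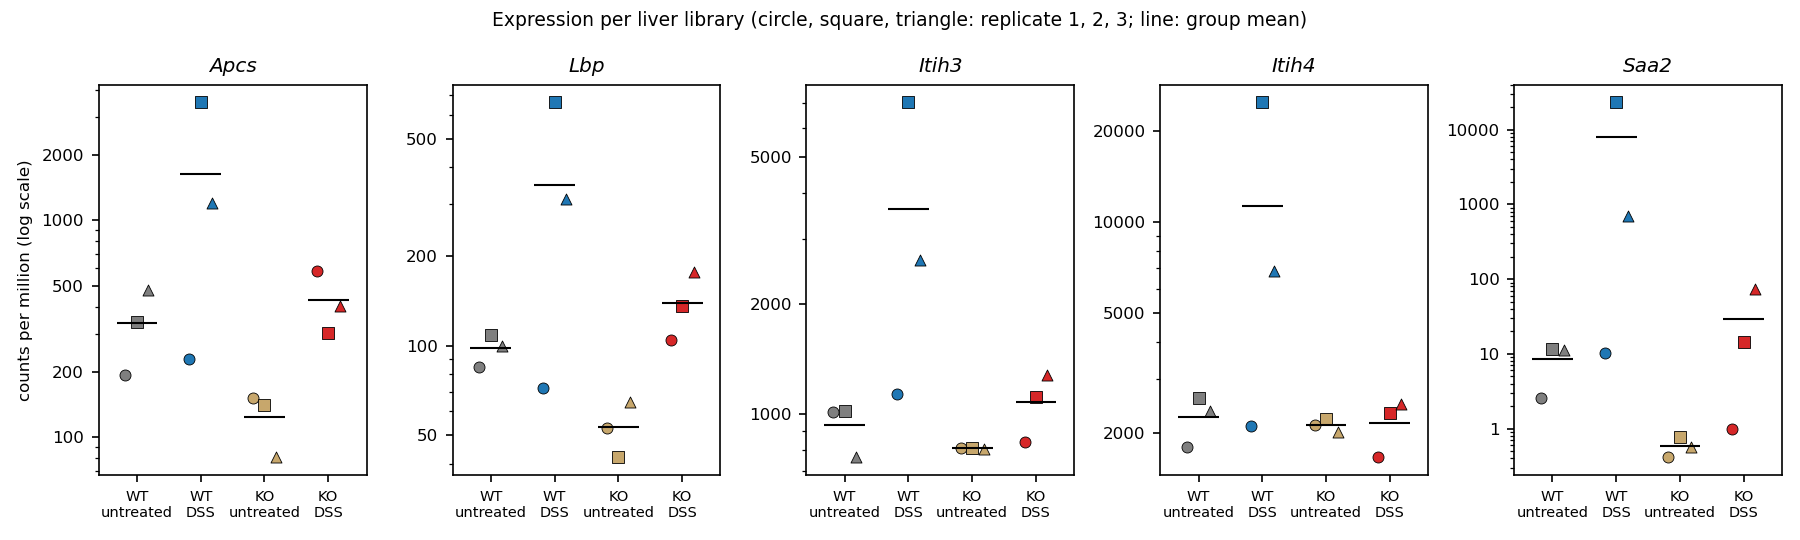
Levels of Apcs, Lbp, Itih3, Itih4 and Saa2 in the 12 liver libraries, in CPM on a log axis, by group (WT, wild-type; KO, knockout-labelled). Each point is 1 mouse and the line is the mean of 3. Wild-type DSS mouse 2 (square) is the highest point in each panel, from 663 CPM for Lbp to 24890 CPM for Itih4, and wild-type DSS mouse 1 (circle) lies near the untreated mice.

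Per kilobase of annotated exon, the untreated wild-type liver held Itih4 at 678 ± 125 CPM per kb (SD, n = 3), Apcs at 342 ± 145, Itih3 at 257 ± 40.2 and Lbp at 20.3 ± 2.54. The spread of Apcs covered the level of Itih3, while Itih4 lay above both and Lbp below both in every mouse. In untreated knockout-labelled liver the order was Itih4 (639 ± 31.9 CPM per kb), Itih3 (222 ± 0.585), Apcs (127 ± 38.9) and Lbp (11 ± 2.32), and no neighbours in it overlapped. Itih4 alone took 1.89% of all estimated counts in DSS-treated wild-type mouse 2.

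The question of the first comparison is how hepatic transcripts of wild-type mice change with DSS colitis. Apcs stood at 192.9, 339 and 478 CPM in the untreated wild-type mice and at 229.7, 3501 and 1197 CPM in the DSS-treated ones. Mouse 1 of the DSS group lay inside the untreated range, and mice 2 and 3 lay above it, at 10.4 and 3.56 times the untreated mean. The groups therefore overlapped. Apcs had a log2 fold change of 2.29 ± 0.78 (SE, n = 3 per group), with an adjusted p of 0.208 in edgeR's quasi-likelihood test.

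Lbp, the carrier of lipopolysaccharide, was at 84.7, 109 and 100 CPM without DSS and at 72, 663 and 313 CPM with it. Again mouse 1 was low, below all untreated mice, and mice 2 and 3 were 6.78 and 3.20 times the untreated mean. Its log2 fold change was 1.84 ± 0.59 (SE), with an edgeR adjusted p of 0.184.

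Itih3, the bikunin-linked heavy chain, was at 1014, 1020 and 764 CPM without DSS and at 1136, 7046 and 2627 CPM with it. It was the only member whose wild-type groups did not overlap, although mouse 1 exceeded the highest untreated mouse by little. Its log2 fold change was 1.95 ± 0.48 (SE), with an edgeR adjusted p of 0.0886.

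Itih4, the heavy-chain relative without bikunin, was at 1790, 2602 and 2355 CPM without DSS and at 2108, 24890 and 6888 CPM with it. Mouse 2 was 11.1 times and mouse 3 was 3.06 times the untreated mean, and mouse 1 lay inside the untreated range. Itih4 had a log2 fold change of 2.33 ± 0.65 (SE), with an edgeR adjusted p of 0.123.

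None of the 4 members passed an adjusted p of 0.05 in wild-type mice with edgeR, where 0.685% of the 17652 tested genes did. All 4 had an unadjusted p under 0.05, which 14.5% of all genes had. With DESeq2, which called 5.59% of its genes, 3 of the 4 passed (Itih3 with an adjusted p of 0.000494, Itih4 with 0.0117 and Apcs with 0.0301), and Lbp had an adjusted p of 0.0537. Only Itih3 had groups that did not overlap with DSS higher, as had 9.49% of all genes. The exact two-sided permutation test on log2 CPM gave p = 0.1 for Itih3, the smallest that 3 against 3 allows, 0.3 for Apcs and Itih4 and 0.4 for Lbp. The median log2 fold change of the 4 members was 2.12, against 0.018 over all tested genes.

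Leaving out a single mouse moved these values. Without DSS-treated wild-type mouse 1, edgeR called all 4 members (1.14% of all genes), with log2 fold changes of 2.32 to 2.82 and adjusted p from 0.00671 for Lbp to 0.0264 for Apcs. Without mouse 2 the log2 fold changes were 0.97 (Lbp), 0.99 (Itih4), 1.01 (Itih3) and 1.07 (Apcs), and none was called. Mouse 2 also had the highest summed level of 9 neutrophil markers, 105.5 CPM against 2.20 to 4.47 CPM in untreated wild-type mice, while mouse 3, with the second highest member levels, had 2.87 CPM. The 5 Kupffer cell markers of mouse 2 summed to 768 CPM, against 209.5 to 441 CPM in untreated wild-type mice and 343 to 455 CPM in the other DSS-treated ones. Albumin (Alb) was at 65410 CPM in mouse 2 and 62890 CPM in mouse 3, against 93690 to 110600 CPM in the other wild-type mice, while the other 6 hepatocyte markers summed to 17140 and 20660 CPM, against 17810 to 25920 CPM. The part of these markers in the member levels was not tested, and in whole liver fewer cells of a type and less RNA per cell cannot be told apart.

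The next comparison is the same DSS treatment in the knockout-labelled mice. Apcs was at 152, 141 and 80.9 CPM without DSS and at 586, 301 and 401 CPM with it. Every DSS-treated mouse was higher than every untreated mouse, at 2.42 to 4.70 times the untreated mean. The log2 fold change was 1.79 ± 0.76 (SE, n = 3 per group), with an edgeR adjusted p of 0.186.

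Lbp was at 52.7, 42 and 64.5 CPM without DSS and at 104, 136 and 177 CPM with it. The groups again did not overlap, and the DSS-treated mice were 1.96 to 3.34 times the untreated mean. For Lbp the log2 fold change was 1.39 ± 0.58 (SE), with an edgeR adjusted p of 0.178.

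Itih3 was at 808, 811 and 807 CPM without DSS and at 842, 1116 and 1280 CPM with it. The 3 untreated values were nearly equal, and all DSS values lay above them, at 1.04 to 1.58 times their mean. The log2 fold change was 0.42 ± 0.47 (SE), with a 95% interval of -0.60 to 1.44 and an edgeR adjusted p of 0.637.

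Itih4 was at 2116, 2227 and 2015 CPM without DSS and at 1657, 2319 and 2494 CPM with it. The groups overlapped, and mouse 1 of the DSS group was the lowest of all 12 libraries. Itih4 had a log2 fold change of 0.03 ± 0.62 (SE), with a 95% interval of -1.32 to 1.37 and an edgeR adjusted p of 0.986. Its sign turned under 6 of the 20 alternative settings, from -0.09 to 0.17 over all of them.

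In the knockout-labelled mice edgeR called 0 of the 4 members, where it called 7.02% of all genes, and DESeq2 also called 0, where it called 14.4%. Apcs and Lbp had an unadjusted p under 0.05, as had 24.1% of all genes. The groups of Apcs, Lbp and Itih3 did not overlap with DSS higher, and 17.8% of all genes had that pattern. The exact permutation p was 0.1 for these 3 and 1 for Itih4. When the spread was estimated from the 6 knockout-labelled libraries alone, edgeR called Apcs (adjusted p = 0.00752) and Lbp (0.00691) but neither Itih3 (0.208) nor Itih4 (0.99), with 10.2% of all genes called. Both were also called when wild-type DSS mouse 1 was left out of the shared estimate of spread (0.0418 and 0.0142, with 6.92% of all genes called). With sex as a covariate the log2 fold change of Apcs was 0.94 (edgeR adjusted p = 0.857) and that of Lbp 1.35 (0.707). Only untreated wild-type mouse 3 separates sex from DSS in this design. Sex was coded as Xist above 100 CPM. That mouse was thus entered with the DSS-treated knockout-labelled mice, despite its Y-linked sum of 30.1 CPM. Every value with this covariate rests on that library. Untreated wild-type mouse 3, the wild-type mouse with high Xist, had the highest Apcs of its group and the middle Lbp.

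Kupffer cell markers moved with DSS in these mice. All 5 tested markers were called higher by edgeR, against 7.02% of all genes called, and their summed level went from 249 to 273 CPM in the untreated mice to 514 to 837 CPM with DSS. Of 4 tested monocyte and macrophage markers 2 were called higher (Lyz2 and Cd68), and their summed level went from 52.6 to 80.4 CPM without DSS to 144 to 265 CPM with it. With sex as a covariate, and without untreated mouse 2 or 3, edgeR called 0 markers of either list. Without DSS mouse 1 it called 0 Kupffer cell markers and 1 of the monocyte and macrophage markers, and without untreated mouse 1 or DSS mouse 2 it called 1 of each list. The summed neutrophil markers were at 0.345 to 0.810 CPM without DSS and at 6.74 to 23.8 CPM with it, and DSS-treated mouse 1 had the highest sums of both lists, the highest Apcs and the lowest Lbp, Itih3 and Itih4 of its group. Their part in the member levels was not tested.

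**Figure D2:**
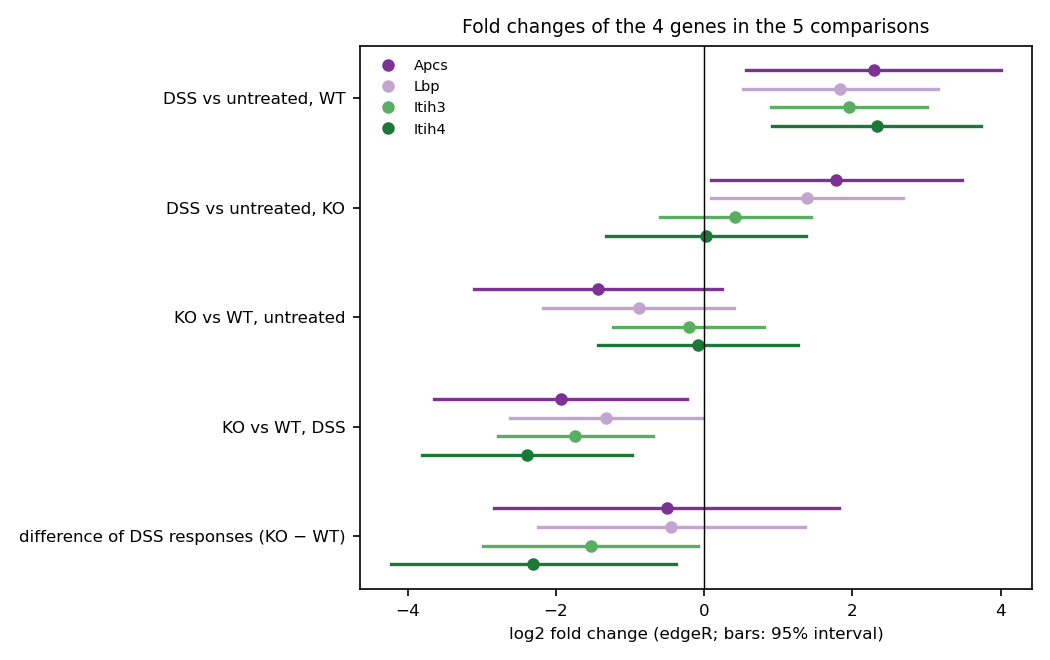
Log2 fold changes of Apcs, Lbp, Itih3 and Itih4 from edgeR with 95% intervals in the 5 comparisons (n = 3 per group). All 4 intervals lie above 0 for DSS in wild-type mice before adjustment over all genes. For DSS in knockout-labelled mice only those of Apcs and Lbp do, and Itih4 sits at 0.03.

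Untreated knockout-labelled liver was compared with untreated wild-type liver for the resting level of each gene. Apcs (80.9 to 152 CPM against 192.9 to 478 CPM) and Lbp (42 to 64.5 CPM against 84.7 to 109 CPM) were lower in every knockout-labelled mouse than in every wild-type mouse. Their means were 2.70 and 1.84 times higher in wild-type mice. Itih3 and Itih4 overlapped between genotypes. The log2 fold changes were -1.43 ± 0.75 for Apcs, -0.88 ± 0.58 for Lbp, -0.21 ± 0.47 for Itih3 and -0.09 ± 0.62 for Itih4 (SE, n = 3 per group), with edgeR adjusted p of 0.491, 0.59, 0.906 and 0.971. Neither edgeR (0.0623% of all genes called) nor DESeq2 (2.3%) called any of the 4, and none had an unadjusted p under 0.05, which 11.7% of all genes had. A pattern of no overlap with the knockout-labelled mice lower, as Apcs and Lbp showed, was present in 10.7% of all genes. The exact permutation p was 0.1 for Apcs and Lbp, 0.4 for Itih3 and 0.8 for Itih4.

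With DSS in both genotypes, the knockout-labelled mice were compared with the wild-type mice, a comparison that shares its libraries with those above. All 3 knockout-labelled mice here had high Xist and Y-linked sums of at most 0.12 CPM, and all 3 wild-type mice had Y-linked sums of 205 to 228 CPM, so sex and genotype cannot be told apart in it. Each member had a lower mean in the knockout-labelled mice, by 5.24 times for Itih4, 3.83 times for Apcs, 3.34 times for Itih3 and 2.51 times for Lbp. All 4 overlapped, because wild-type mouse 1 was at or below the level of some knockout-labelled mice for every member, and 7.98% of all genes were lower without overlap. The log2 fold changes were -2.39 ± 0.65 for Itih4, -1.94 ± 0.77 for Apcs, -1.74 ± 0.48 for Itih3 and -1.33 ± 0.58 for Lbp (SE, n = 3 per group). The edgeR adjusted p were 0.144, 0.302, 0.147 and 0.341, so none was called, against 0.334% of all genes, and all 4 had an unadjusted p under 0.05, against 14.3%. DESeq2 called Itih3 (adjusted p = 0.00333) and Itih4 (0.0112) and 3.89% of all genes. Without wild-type DSS mouse 1, edgeR called all 4 (adjusted p from 0.00589 for Itih4 to 0.0324 for Apcs) and 2.14% of all genes. Without wild-type DSS mouse 2, the differences were between -0.46 (Lbp) and -1.06 (Itih4) and none was called. The exact permutation p ranged from 0.2 for Itih3 to 0.5 for Lbp.

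The DSS-treated knockout-labelled mice can also be set beside the untreated wild-type mice. Their mean levels were 1.28 times (Apcs), 1.42 times (Lbp), 1.16 times (Itih3) and 0.959 times (Itih4) those of untreated wild-type liver. No test was made of this pair of groups, which differ in genotype, treatment and sex-linked transcripts.

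The difference between genotypes in the DSS response was tested as an interaction. It was -2.30 ± 0.88 for Itih4 and -1.53 ± 0.67 for Itih3 on the log2 scale (SE), and -0.50 ± 1.05 for Apcs and -0.44 ± 0.81 for Lbp, where negative values mean a smaller response in the knockout-labelled mice. Sex follows DSS in the knockout-labelled mice, so the interaction also holds any difference by sex, and genotype and sex cannot be told apart in it. With sex as a covariate it was -2.44 for Itih4, -0.995 for Itih3, -1.69 for Apcs and -0.51 for Lbp (edgeR adjusted p of 0.762 to 0.959). None was called with edgeR (adjusted p of 0.237, 0.282, 0.848 and 0.827, with 0.408% of all genes called) or with DESeq2 (4.5% of all genes called). Itih3 and Itih4 had an unadjusted p under 0.05, as had 16.3% of all genes. Without wild-type DSS mouse 1, Itih4 was called (-2.79, edgeR adjusted p = 0.0376, with 1.2% of all genes called). The 95% intervals of Apcs (-2.83 to 1.83) and Lbp (-2.25 to 1.36) included both a complete loss and no loss of the wild-type response. Their signs turned to 0.70 and 0.41 without wild-type DSS mouse 2.

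**Figure D3:**
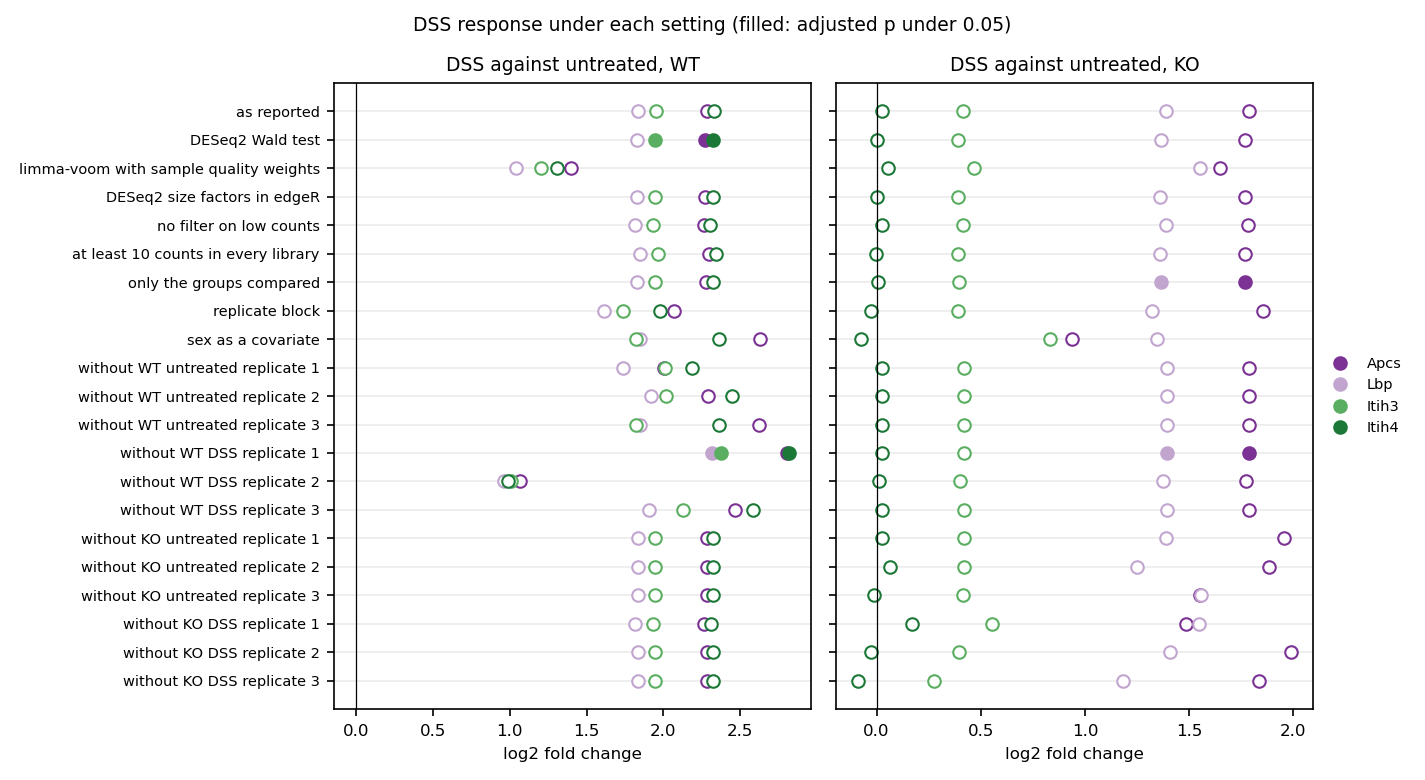
Log2 fold change for DSS against untreated in wild-type (left) and knockout-labelled mice (right) under each setting, for the 4 members. Filled points have an adjusted p under 0.05. In wild-type mice all 4 fill without WT DSS replicate 1 and move to about 1 without replicate 2. In knockout-labelled mice Apcs and Lbp stay at 0.94 or above and Itih4 stays between -0.09 and 0.17.

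Ratios inside a library do not depend on how the libraries are scaled, so the members were compared with Itih4 of the same mouse. The ratio of Itih3 to Itih4 was planned, and those of Apcs and Lbp to Itih4 were added after the data were seen. Apcs was at 0.108, 0.130 and 0.203 of the Itih4 level in untreated wild-type mice and at 0.109, 0.141 and 0.174 with DSS, and all 3 DSS values lay inside the untreated range. In knockout-labelled mice Apcs was at 0.0719, 0.0633 and 0.0402 of Itih4 without DSS and at 0.354, 0.130 and 0.161 with it, and the groups did not overlap. The difference in log2 ratio was -0.03 in wild-type mice (exact permutation p = 1, n = 3 per group) and 1.78 in knockout-labelled mice (p = 0.1).

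Lbp was at 0.0473, 0.0419 and 0.0424 of Itih4 in untreated wild-type mice and at 0.0341, 0.0267 and 0.0454 with DSS. In knockout-labelled mice it went from 0.0249, 0.0189 and 0.0320 to 0.0629, 0.0588 and 0.0710, without overlap. The difference in log2 ratio was -0.35 (exact permutation p = 0.3, n = 3 per group) in wild-type and 1.37 (p = 0.1) in knockout-labelled mice. Itih3 relative to Itih4 differed by -0.10 (p = 0.7) and 0.39 (p = 0.1) by the same exact test, and the knockout-labelled groups, at 0.364 to 0.40 and 0.481 to 0.513, did not overlap. These 6 tests could not go below 0.1, so none could pass 0.05 even before adjustment. All of them divide by the same Itih4 values, so they are not separate observations. The share of all genes whose ratio to Itih4 does not overlap was not computed.

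**Figure D4:**
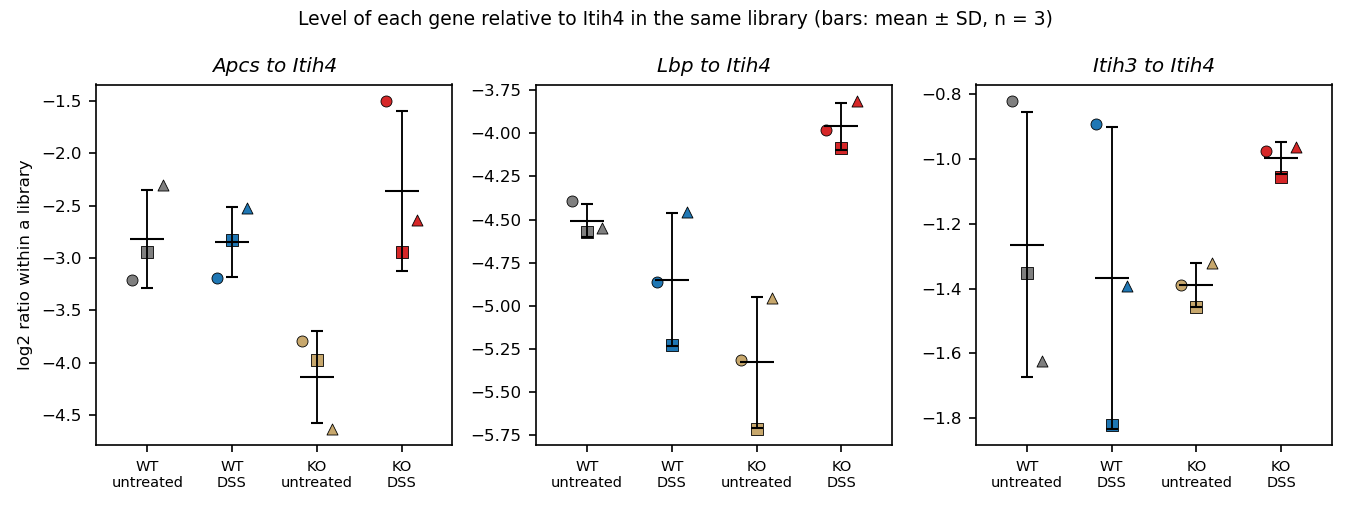
Log2 ratio of Apcs, Lbp and Itih3 to Itih4 within each library, by group, with mean ± SD (n = 3). The knockout-labelled DSS points lie above all untreated knockout-labelled points in each panel, and the wild-type groups overlap in each panel. The panels share Itih4 as divisor and are not separate observations.

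The members were compared with each other over the 12 libraries, which share mice, treatment and the wide range set by wild-type DSS mouse 2. Pearson's r of log2(CPM + 0.5) was 0.97 for Itih3 with Itih4 and 0.92 for Apcs with Lbp, and the lowest pair was Apcs with Itih4, at 0.83. Without wild-type DSS mouse 2 these values were 0.87, 0.84 and 0.62. Spearman's rho over the 12 libraries was lower, at 0.56, 0.86 and 0.57 for the same pairs. The 5 named genes most like Apcs were Il13ra1 (r = 0.98), Fgl1, Snx7, 1110008P14Rik and Ctbs (0.94 to 0.96). Those most like Lbp were Lcn2 (0.96), Saa2, Fgl1, Cxcl1 and Serpina10 (0.94 to 0.95). Those most like Itih3 were Serpina10 (0.99), Rpap3, Tmem176b, Hp and Tmem176a (0.98 each). For Itih4 they were Hp (0.99), Cyb561 (0.99), Hpx, Rpap3 and Bbs9 (0.97 to 0.98). The correlations are descriptions over 12 libraries, without a test.

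Saa2, the serum amyloid A relative, had the widest range. It was at 2.53, 11.5 and 11.2 CPM in untreated and at 10.1, 23330 and 698 CPM in DSS-treated wild-type mice. In knockout-labelled mice it was at 0.412, 0.773 and 0.567 CPM without DSS and at 0.984, 14.6 and 73.1 CPM with it. Mouse 1 of either DSS group stayed near its untreated group, and the knockout-labelled groups did not overlap. Within the DSS-treated knockout-labelled mice, mouse 1 had the lowest Saa2 and the highest Apcs. The log2 fold change was 9.90 ± 2.84 in wild-type mice (SE, edgeR adjusted p = 0.156, DESeq2 adjusted p = 2.29e-06) and 5.66 ± 2.43 in knockout-labelled mice (0.196 and 0.0121). The wild-type value was 5.38 without DSS mouse 2 and 5.37 with limma-voom, and the knockout-labelled value was 3.74 without DSS mouse 3. Crp, the other pentraxin, was at 435 to 510 CPM in untreated and 305 to 875 CPM in DSS-treated wild-type mice, with a log2 fold change of 0.46 ± 0.30 (SE, edgeR adjusted p = 0.522). It was at 308 to 418 CPM in untreated and 463 to 620 CPM in DSS-treated knockout-labelled mice, with 0.63 ± 0.30 (SE, 0.227).

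The other inter-alpha-inhibitor genes had fold changes in both directions. None of 6 tested genes passed edgeR's adjusted threshold in either genotype, and their median log2 fold changes were 0.024 in wild-type and 0.20 in knockout-labelled mice. With only the groups compared, edgeR called 1 of 5 tested genes in knockout-labelled mice (10.2% of all genes). Without wild-type DSS mouse 1 it called 1 in wild-type mice (1.14% of all genes). Ambp, the bikunin precursor, was at 1311 to 1873 CPM in untreated wild-type mice and at 1467, 6309 and 2528 CPM with DSS, with a log2 fold change of 1.11 ± 0.40 (SE, edgeR adjusted p = 0.212), or 0.32 without DSS mouse 2. In knockout-labelled mice it was at 1601 to 1739 CPM without and 1189 to 1579 CPM with DSS, with a log2 fold change of -0.23 ± 0.39 (SE, 0.772), and the groups did not overlap. Itih1, which adjoins Itih3, gave 0.38 ± 0.23 and 0.18 ± 0.23, and Itih2 gave 0.17 ± 0.18 and 0.22 ± 0.18. Itih5 (-0.31 and -0.18), the link protein Hapln1 (-2.11 ± 0.79 and 1.98 ± 0.80, SE) and Tnfaip6 (-0.13 ± 1.48 and 2.09 ± 1.53, SE), which transfers heavy chains to hyaluronan, complete that list. Tnfaip6 was at no more than 0.670 CPM in any library, a value of knockout-labelled DSS mouse 2, so its fold changes are not read as a result. With at least 10 counts in every library Tnfaip6 was not tested, and the list medians were 0.18 in wild-type and 0.15 in knockout-labelled mice.

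The calls of DSS in knockout-labelled mice in the gene lists that follow are read against 7.02% of all genes called by edgeR in that comparison. With sex as a covariate edgeR called 4 genes of 17652 there, and without untreated knockout-labelled mouse 2 it called 241 of 18277. Under both settings it called 0 genes of the lists of lipopolysaccharide handling, the interleukin-6 and interleukin-1 arms, liver transcription factors and negative acute-phase genes.

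Among 7 tested genes of lipopolysaccharide handling, in which Lbp hands its cargo to Cd14 and then to Tlr4 with Ly96, none was called by edgeR in wild-type mice and 1 rose in knockout-labelled mice. The wild-type count was 1 without DSS mouse 1 (1.14% of all genes) and 1 with DESeq2 (5.59%). The gene called in knockout-labelled mice was Ly96, the co-receptor of Tlr4 (log2 fold change 1.14 ± 0.30, SE, edgeR adjusted p = 0.0368). The list also had 0 calls there without untreated mouse 1 or 3 and without DSS mouse 1 or 3. It had 4 calls there with only the groups compared (10.2% of all genes) and 3 without wild-type DSS mouse 2 (1736 of 18280 genes). In wild-type mice the negative regulator Irak3 gave 2.42 ± 0.57 (SE, adjusted p = 0.0782). There the adaptor Myd88 gave 0.72, Cd14 1.41, Tlr4 0.48 and the lipid transfer protein Pltp 0.26. Cd14 was at 1.733, 14.63 and 1.316 CPM in DSS-treated wild-type mice, against 1.599 to 2.775 CPM in untreated ones. Only mouse 2 lay above the untreated range of Cd14. Irak3 was at 1.914, 9.807 and 2.337 CPM with DSS, against 0.4604 to 1.175 CPM without it. The groups of Irak3 did not overlap, and mouse 2 was the highest. The median of the list was 0.48 in wild-type and 0.89 in knockout-labelled mice. The wild-type median was 0.078 without DSS mouse 2 and 0.064 with limma-voom. The knockout-labelled median was 0.57 without DSS mouse 1 and 0.51 with sex as a covariate.

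Of 13 tested genes of the interleukin-6 and Stat3 arm, edgeR called 1 higher in wild-type and 3 higher in knockout-labelled mice. The knockout-labelled count was 1 without untreated mouse 3, without DSS mouse 1 and with at least 10 counts in every library, which left 10 genes tested. It was 2 without untreated mouse 1 or DSS mouse 2. In wild-type mice, where 0.685% of all genes were called, the count was 0 without untreated mouse 1 or 2. It was also 0 there with limma-voom, with only the groups compared and with at least 10 counts in every library. It was 4 there without DSS mouse 1 (1.14% of all genes) and 5 with DESeq2 (5.59%). Socs1, a feedback inhibitor of cytokine receptors, rose in both, by 2.89 ± 0.51 (SE, adjusted p = 0.0222) and by 2.71 ± 0.48 (0.0081). Tyk2, a receptor kinase, rose by 0.55 ± 0.11 in knockout-labelled mice (SE, adjusted p = 0.015). Il6 was called there too (adjusted p = 0.0262), with 0 counts in all 3 untreated mice and 0.428, 0.323 and 0.141 CPM with DSS. It was at no more than 0.082 CPM in untreated wild-type mice, so it passed the count filter only through DSS-treated mice. Its call is therefore not read as a result, and with at least 10 counts in every library it was not tested. Socs3, the feedback inhibitor induced by Stat3, gave 2.68 ± 0.59 in wild-type mice (SE, edgeR adjusted p = 0.0749) and 0.73 ± 0.56 in knockout-labelled mice (0.468). Il6st, the shared receptor chain, gave 0.69 and 0.049, Osmr 1.90 and 0.58, and Lifr -0.98 and -0.047. In wild-type mice Osmr was at 8.55, 37.6 and 7.47 CPM with DSS and at 3.50 to 6.56 CPM without it. Only mouse 2 lay above the DSS-treated knockout-labelled mice, which were at 8.775 to 12.2 CPM. The levels of Socs3 did not overlap between treatments in either genotype. In wild-type mice they were at 5.03 to 5.69 CPM without DSS and at 8.47, 69.9 and 26.15 CPM with it, with mouse 2 the highest. In knockout-labelled mice they were at 5.01 to 7.42 CPM without DSS and at 8.43 to 12.2 CPM with it.

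Of 14 tested genes of the interleukin-1 and NF-kB arm, none was called by edgeR in wild-type mice, 9 had an unadjusted p under 0.05 there (14.5% of all genes) and DESeq2 called 6 (5.59% of all genes). The edgeR count there was 4 without DSS mouse 1 (1.14% of all genes) and 1 with the replicate block (119 of 17652 genes). In knockout-labelled mice edgeR called 4 higher and 1 lower, and DESeq2 called 8 (14.4% of all genes). The edgeR count was 9 without wild-type DSS mouse 2 (1736 of 18280 genes) and 8 with only the groups compared (10.2% of all genes). It was 2 without knockout-labelled DSS mouse 2, and 3 without untreated knockout-labelled mouse 1 or 3 or knockout-labelled DSS mouse 1. Relb and Nfkb2, the subunits of the non-canonical pathway, rose by 1.82 ± 0.32 and 1.21 ± 0.25 (SE, adjusted p of 0.00824 and 0.0157). The cytokines Il1b and Il1a rose by 1.55 ± 0.34 and 1.06 ± 0.29 (SE, 0.0179 and 0.0444), and the receptor chain Il1rap fell by 0.76 ± 0.19 (SE, 0.031). In wild-type mice Relb gave 1.24, Tnfrsf1a 0.79, Tnfaip3 1.46, Nfkbiz 1.39 and Nfkbia 0.75 on the log2 scale, with edgeR adjusted p of 0.0938 to 0.163. DSS-treated wild-type mouse 2 was the highest for Tnfaip3 and Nfkbiz. Tnfaip3 was at 5.90, 21.0 and 7.41 CPM with DSS, against 3.72 to 4.775 CPM without it. Nfkbiz was at 10.6, 36.5 and 14.3 CPM, against 7.22 to 8.68 CPM. Cells other than hepatocytes also express several of these genes.

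Among 9 tested liver transcription factors, none was called by edgeR in wild-type mice. In knockout-labelled mice Hnf4a, a hepatocyte regulator, fell by 0.70 ± 0.18 and Atf3, a stress factor, rose by 1.82 ± 0.45 (SE, adjusted p of 0.0325 and 0.0327). There edgeR called 0 of the list without untreated mouse 1 or DSS mouse 2, and 1 without untreated mouse 3 or DSS mouse 1 or 3. It also called 1 with the replicate block, without a filter on low counts and with only the groups compared. Cebpd, an acute-phase activator, gave 2.20 ± 0.61 in wild-type mice (SE, edgeR adjusted p = 0.123) and 0.12 ± 0.58 in knockout-labelled mice (0.924). Cebpb gave 0.82 and -0.82, Cebpa -0.41 and -0.49, and Creb3l3 -0.094 and -0.17. Mouse 2 was the highest DSS-treated wild-type mouse for Cebpd and Cebpb. Cebpd was at 4.21, 15.6 and 2.62 CPM in these mice, against 1.34 to 1.995 CPM in untreated wild-type mice. Cebpb was at 29.8, 64.95 and 26.6 CPM, against 16.25 to 26.5 CPM.

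Of 11 tested negative acute-phase genes, 1 was called in knockout-labelled mice, Serpina6, the corticosteroid-binding globulin (-1.99 ± 0.52, SE, edgeR adjusted p = 0.0455), and none in wild-type mice. That call was also lost with the replicate block, without a filter on low counts and on leaving out any 1 library other than wild-type DSS mouse 2 or 3. In wild-type mice 6 of the 11 had negative log2 fold changes, and the list median was -0.128. The 3 with an unadjusted edgeR p under 0.05 (14.5% of all genes) were higher with DSS. They were Fetub (0.59 ± 0.2), Trf (0.93 ± 0.37) and Apoa1 (0.57 ± 0.25, SE), with edgeR adjusted p of 0.189, 0.269 and 0.314. Igf1 gave -0.45 and Serpina6 -1.08 there (0.349 and 0.357). In knockout-labelled mice Fetub gave -0.46, Trf 0.27 and Apoa1 0.22. None of 8 genes of high-density lipoprotein and serum amyloid A handling and none of 7 secretory-pathway genes was called in either genotype. Of 8 genes with female-biased liver expression 2 rose, and of 6 with male-biased expression 3 fell, with DSS in the knockout-labelled mice by edgeR. With sex as a covariate, and without untreated knockout-labelled mouse 2, 0 of either list were called. The male-biased count was also 0 without knockout-labelled DSS mouse 1 or 2. It was 6 with DESeq2 (14.4% of all genes) and with only the groups compared (10.2%). The female-biased count was 4 with DESeq2 (14.4% of all genes), with the replicate block (1164 of 17652 genes) and without untreated wild-type mouse 3 (1148 of 18309 genes).

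**Figure D5:**
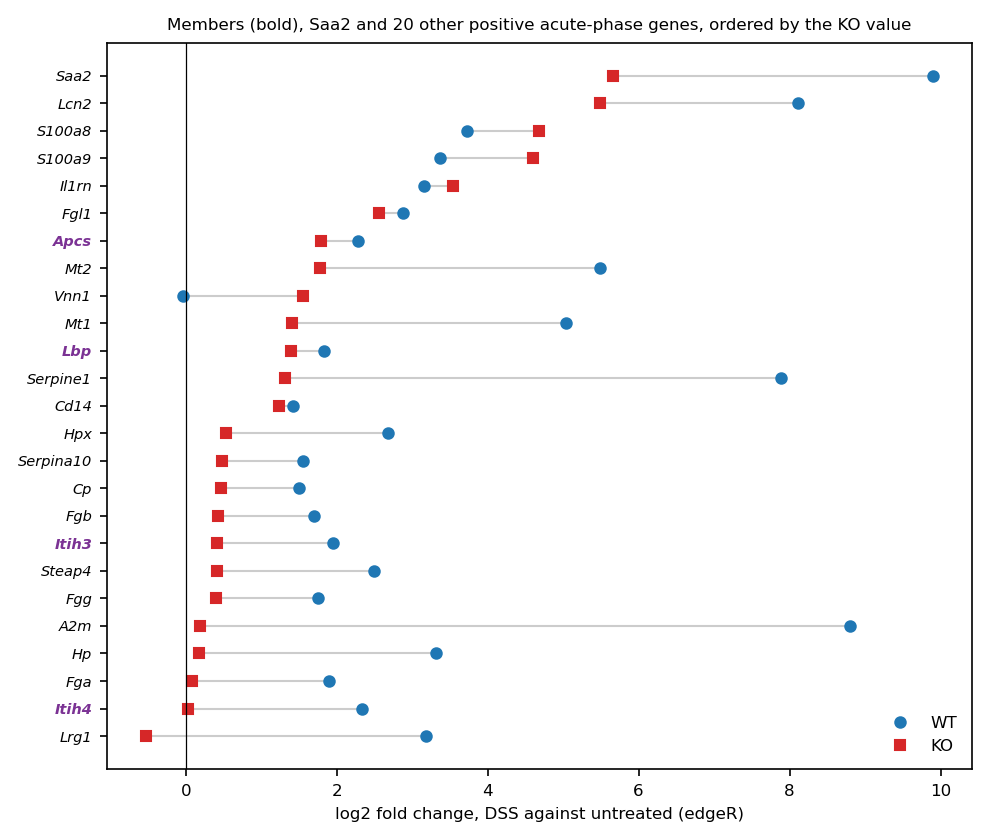
Log2 fold changes for DSS against untreated from edgeR in wild-type (circles) and knockout-labelled mice (squares) for the 4 members (bold), Saa2 and 20 other positive acute-phase genes, ordered by the knockout-labelled value. Apcs (2.29 and 1.79) and Lbp (1.84 and 1.39) have nearby points, and Itih3 (1.95 and 0.42) and Itih4 (2.33 and 0.03) have points far apart, next to the fibrinogen chains Fga, Fgb and Fgg.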

How the data were processed

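RNA of 12 mouse livers was sequenced in read pairs after removal of ribosomal RNA. The authors trimmed reads with fastp, aligned them to mm9 with HISAT2 and quantified genes with StringTie. They deposited 1 table of estimated counts per gene, which were rounded to whole numbers here. Totals of 65879529 to 82850098 exceed the fragments that the study's methods give per sample, so an estimated count is not a fragment and no counting interval is given. Members were matched through GENCODE vM1.

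edgeR 4.0.16 (R 4.3.3) fitted 1 quasi-likelihood model to the 4 groups, with TMM scaling and filterByExpr at a minimum count of 10, on 17652 genes. P-values were adjusted by Benjamini-Hochberg over all of them, with a threshold of 0.05. DESeq2 1.42.0 and limma 3.58.1 were alternatives. Levels are CPM, with a pseudocount of 0.5 before log2. Exact two-sided permutation tests had 20 splits. The edgeR step was tested on simulated data. The labels do not say more of the mice than their groups, so p-values measure the spread between these samples. Any pair of libraries had equal counts in at most 0.883% of the rows over 20 counts.

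All members were named, with up to 5 genes of each list by smallest p in wild-type mice, each list gene past the threshold (up to 5 more), and the 5 most correlated genes per member. Members and lists were chosen with earlier results of these data known. The lists of relatives, pathways, other acute-phase genes and cell type markers were taken by symbol. The other alternatives changed the scaling, the filter, the libraries and the covariates.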

Additional observations from a re-analysis of the deposited data

How the results depend on the processing

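With edgeR the number of members called was 0 in each of the 5 comparisons, and that number held under most settings. DESeq2 called 3 for DSS in wild-type mice and 2 for knockout-labelled against wild-type mice with DSS. Fitting only the groups compared called 2 for DSS in knockout-labelled mice. Leaving out 1 library at a time called 0 to 4, 0 to 2, 0, 0 to 4 and 0 to 1 members in the comparisons of DSS in wild-type mice, DSS in knockout-labelled mice, genotype without DSS, genotype with DSS and the difference of responses, with every count above 0 coming from the removal of wild-type DSS mouse 1. Of 396 alternative fold changes of members, 366 kept direction and call, 18 became called and 12 changed sign. Itih4 changed sign for DSS in knockout-labelled mice with at least 10 counts in every library (-0.002), the replicate block (-0.025), sex as a covariate (-0.075) and without untreated mouse 3 (-0.010), DSS mouse 2 (-0.027) or DSS mouse 3 (-0.090, with 0.17 as the highest value on leaving out a library), and for untreated genotypes with limma-voom (0.007) and without wild-type mouse 2 (0.032, with -0.227 as the lowest). The difference of responses changed sign with limma-voom for Apcs (0.247) and Lbp (0.511), and without wild-type DSS mouse 2 for Apcs (0.704, lowest on leaving out a library -1.016) and Lbp (0.409, lowest -0.923).

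Saa2, Crp, Itih1, Itih2 and Ambp were added to the alternatives for both DSS responses after the data were seen. Of their 200 alternative fold changes, 4 became called, those of Saa2 with DESeq2 in both genotypes and of Ambp in wild-type mice with DESeq2 (adjusted p = 0.0489) and without DSS mouse 1 (edgeR, 0.0477), and the single sign change was that of Ambp in knockout-labelled mice with sex as a covariate (0.172). The Kupffer cell, monocyte and macrophage and sex-biased lists were followed through the same settings, also after the data were seen. Apart from the removals of single libraries the cause was not tested. The 48 alternative ratios and 32 alternative pseudocount values moved by less than 1 SD.

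The replicate numbers did not pair the mice: 5 of 18 same-number pairs correlated above 0.1 (range -0.073 to 0.206). With the replicate block the count of members called stayed at 0 in each comparison. The planned ratios of Saa1 to the other members were not run. The design limits all of these: 3 mice a group, wild-type DSS mice that range from 229.7 to 3501 CPM in Apcs, and sex that follows DSS in the knockout-labelled mice.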

Other observations

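The 20 other positive acute-phase genes tested gave medians of 3.02 in wild-type and 0.88 in knockout-labelled mice on the log2 scale for DSS against untreated, against 0.018 and -0.008 over all genes. The wild-type median was 1.03 without DSS mouse 2 and 1.37 with limma-voom. In each genotype 19 of the 20 had a positive value and edgeR called none, while 18 and 6 had an unadjusted p under 0.05, as had 14.5% and 24.1% of all genes. DESeq2 called 16 and 5, against 5.59% and 14.4% of all genes. Without wild-type DSS mouse 1, edgeR called 12 in wild-type mice (1.14% of all genes), and with the knockout-labelled libraries alone it called 8 in knockout-labelled mice (10.2% of all genes). The fibrinogen chains Fga, Fgb and Fgg, which form the clotting polymer, gave 1.90 ± 0.40, 1.69 ± 0.39 and 1.76 ± 0.42 in wild-type mice (SE, edgeR adjusted p of 0.0514, 0.0673 and 0.0792) and 0.08, 0.42 and 0.41 in knockout-labelled mice. The copper carrier Cp gave 1.5 and 0.47, and the haemoglobin-binding Hp, among the genes most like Itih3 and Itih4, gave 3.32 and 0.18. Mouse 2 was the highest DSS-treated wild-type mouse for both. Hp was at 1653, 35610 and 8323 CPM in these mice, against 1151 to 2090 CPM in untreated wild-type mice. Cp was at 1863, 6777 and 2809 CPM, against 1316 to 1378 CPM.

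The 5 genes of that list with a knockout-labelled log2 fold change above that of Apcs (1.79) were singled out after their values were seen. Fgl1 (2.56), a secreted fibrinogen-like protein, was at 49.3 to 62.8 CPM without DSS and at 241 to 432 CPM with it, and Lcn2 (5.49), a siderophore-binding protein, at 0.744 to 1.63 CPM and 21.8 to 61.8 CPM. Neither overlapped between treatments there, a pattern that 17.8% of all genes had, and their edgeR adjusted p was 0.113 each. Both were picked by their fold change in this same comparison, so the lack of overlap is not read as a result. Il1rn (3.16 and 3.53), S100a8 (3.73 and 4.68) and S100a9 (3.37 and 4.60) had knockout-labelled log2 fold changes above their wild-type ones, none called by edgeR in either genotype, and S100a8 and S100a9 are also neutrophil markers. Wild-type DSS mouse 2 carried much of the wild-type values. With DSS the wild-type mice had S100a8 at 1.86, 38.2 and 0.843 CPM, S100a9 at 2.45, 39.2 and 1.21 CPM and Il1rn at 7.35, 63.1 and 2.84 CPM. Untreated wild-type mice had these genes at 0.765 to 1.18, 0.847 to 1.92 and 2.21 to 3.09 CPM in the same order. Untreated knockout-labelled mice had them at 0.0966 to 0.2525, 0.248 to 0.319 and 1.035 to 2.065 CPM, all below the untreated wild-type mice. With DSS these were at 2.24 to 8.33, 3.27 to 11.97 and 13.21 to 24.05 CPM. The difference of responses was 0.95 ± 1.77, 1.23 ± 1.63 and 0.38 ± 1.28 (SE, edgeR adjusted p of 0.83, 0.746 and 0.914).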
